A study of Mus musculus with 4 samples.

Results

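The genes described here are 10 components of the TGF-beta and activin system, taken by symbol from a table of 23282 genes: the ligand genes Tgfb2, Tgfb3 and Inhba, the latent binding protein gene Ltbp1, the receptor genes Tgfbr1, Acvr1, Acvr2a and Tgfbr3, and the activin antagonists Fst and Fstl3. All 10 were found and all 10 were abundant enough to test. They were measured in the chromatin-bound RNA of C2C12 myotubes, the fused muscle cells that form from a mouse myoblast line which is itself 1 clone, and which the labels give as female. Every culture had been deprived of steroids. One group of 2 libraries then received vehicle for 2 h and the other group of 2 libraries received 1 µM dexamethasone, a synthetic glucocorticoid, for 2 h. The labels do not say whether the 2 libraries of a group came from separate cultures, so the p-values measure only the spread between these libraries.

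TGF-beta ligands are secreted in an inactive form, bound to their own propeptide and tethered to the matrix by latent binding proteins such as the product of Ltbp1. Once released, a TGF-beta or activin dimer brings type II and type I receptor kinases together, and the type I kinase phosphorylates SMAD2 and SMAD3, which carry the signal to the nucleus. In skeletal muscle, activins and their relative myostatin hold back growth, follistatin binds and neutralises them, and TGF-beta slows the differentiation of myoblasts.

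The 4 libraries held between 19631435 and 88596296 counts, the fewest in vehicle replicate 1 and the most in dexamethasone replicate 2. All 12 myotube marker genes examined were above 1 CPM (counts per 1000000 counts of the library) in at least one library. In 11 of them both libraries numbered 1 were above both numbered 2, and Mymk, the exception, had 176 and 173 CPM after vehicle and 208 after dexamethasone in both libraries. Their sum was 130513 CPM in vehicle replicate 1 and 126190 in dexamethasone replicate 1, against 46518 and 45638 in the libraries numbered 2; Ttn made up 90.5% of it in vehicle replicate 1, and without Ttn the sums were 12430 and 12878 against 5464 and 5710. Summed markers of immune, endothelial, adipocyte and epithelial cells stayed at or below 7.64 CPM in every library. These sums rested mostly on a few genes. Cd68 had 2.92 to 3.87 CPM and Itgam 2.05 to 3.70 (immune), and Pnpla2 had 2.85 to 5.77 (adipocyte). Cdh1 had 2.87 to 7.29 (epithelial), and Pecam1 and Tek had 0.734 to 1.13 and 0.900 to 1.02 (endothelial). Ptprc was at 0.0333 CPM or less and Cidec and Epcam were at 0. Cd3e, also at 0, lies in a row of 164 genes at 0 on chromosome 9 and is taken as not measured. A set of 8 genes of cycling or undifferentiated myoblasts summed to 60.1 and 63.9 CPM after vehicle and to 46.3 and 53.7 after dexamethasone. Pax7 alone had 32.0 and 39.0 against 17.9 and 22.9, and the other 7 summed to 28.1 and 24.9 against 28.3 and 30.8. The 5 fibroblast genes summed to 35.7 and 56.6 against 33.0 and 32.0, with Lum and Thy1 at 0. Without Col1a1 the sums were 11.4 and 9.17 against 13.1 and 15.2, and Pdgfra had 6.11 and 4.29 against 9.14 and 12. Col1a1 and Dcn also stand in the pathway lists below. The part of these shifts in the results below was not tested. The glucocorticoid-induced gene Fkbp5 had 21.4 and 21.6 CPM after vehicle and 1018 and 696 after dexamethasone, and it rose (log2 fold change 5.32, SE 0.263, edgeR quasi-likelihood adjusted p 0.0429; 0.0598 with limma-voom). Per1 and Tsc22d3, also glucocorticoid-induced, had 2.53 (SE 0.186) and 2.72 (SE 0.455) on the same scale. Neither passed (edgeR quasi-likelihood adjusted p 0.117 and 0.213). Nr3c1, the glucocorticoid receptor gene, had 238 and 180 CPM after vehicle and 121 and 83.7 after dexamethasone, and did not pass (adjusted p 0.430 in the same edgeR test).

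Tgfbr3 was the member with the largest fold change, at a mean of 46.6 ± 5.65 CPM after dexamethasone against 13.8 ± 4.94 after vehicle (SD, n = 2 each). CPM here are scaled by TMM, a factor that corrects for a few genes taking a large part of a library. Fstl3 and Tgfb2 were also higher in both dexamethasone libraries than in both vehicle libraries, and Tgfb3, Inhba, Acvr1 and Acvr2a were lower in both. Ltbp1, Tgfbr1 and Fst overlapped between the groups. None of the 10 passed an adjusted p of 0.05 in edgeR's quasi-likelihood test, in which 0.0376% of the 13285 tested genes were called. At an unadjusted p under 0.05, 2 members were higher (Tgfbr3 and Fstl3) and 2 lower (Tgfb3 and Acvr1), which is 4 members in all, where 5.78% of tested genes were, 4.09% higher and 1.69% lower. DESeq2's Wald test and edgeR's likelihood ratio test each called 1 member, Tgfbr3, beside 289 and 288 of all 13285 tested genes. With limma-voom 0 members and 0 genes in all were called.

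With 3 members higher and 4 lower, 7 of 10 had libraries that did not overlap between the groups, against 27.9% of all tested genes, 15.0% higher and 12.9% lower. Within both replicate numbers the treated library was the higher one for 5 members and the lower one for 4, against 34.2% and 33.9% of tested genes. The 5 include Tgfbr1, whose log2 ratio within number 2 was only 0.0078. That ratio was -0.0098 when scaled by DESeq2's size factors and -0.0165 when scaled by the upper quartile. A log2 fold change of at least 1 was seen in 1 member, Tgfbr3, and in 2.39% of tested genes; 3.72% had a size of at least 1 in either direction. The members were chosen with earlier results of these data known, so these counts are descriptions. In bulk RNA, fewer cells of a type and less RNA per cell cannot be told apart. The plot of the members by library shows the level of each and its spread.

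**Figure D1:**
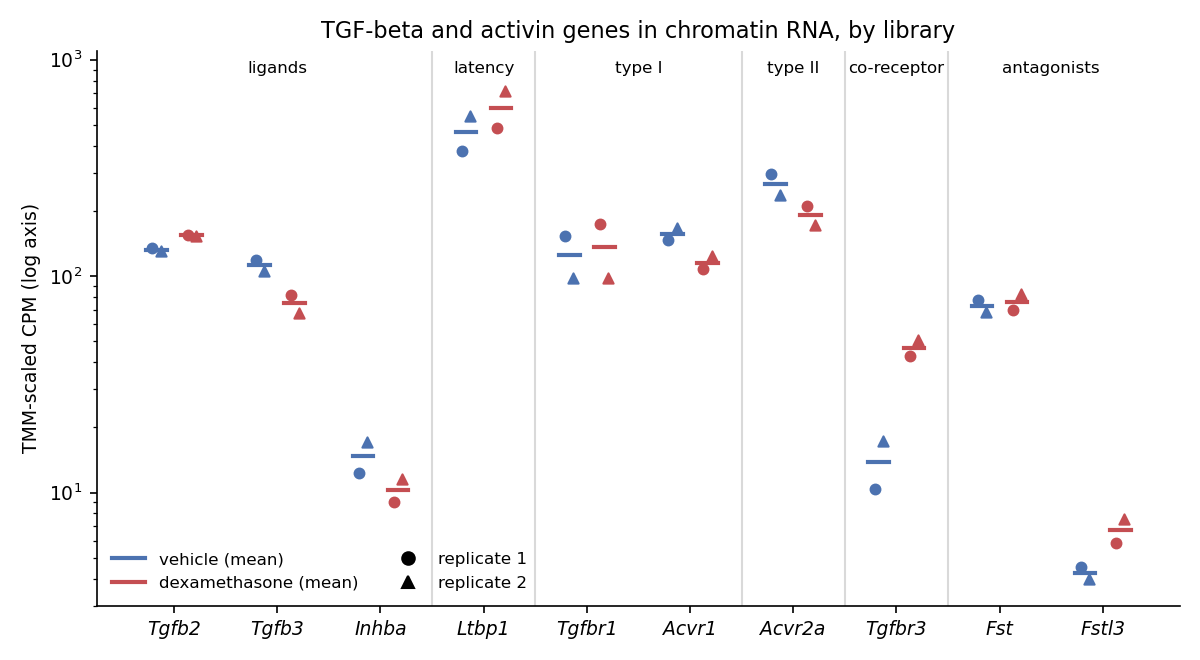
TMM-scaled CPM of the 10 genes in each of the 4 libraries on a log axis, grouped by role, with circles for replicate 1, triangles for replicate 2 and bars for group means. Tgfbr3 lies at 10.3 and 17.3 CPM after vehicle and at 42.6 and 50.6 after dexamethasone, the widest gap between group means on this axis.

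Promoter sequences are shown for 4 of the 7 members whose libraries did not overlap, 2 on the higher side (Fstl3 and Tgfb2) and 2 on the lower side (Inhba and Acvr2a), to set their upstream sequence side by side. Each is the stretch from 250 to 6 bases before a RefSeq transcript start, 245 bases, 5′ to 3′ on the gene's strand, from RefSeq's annotation of build GRCm38.p6, which is not the build mm9 of the submitters' processing notes. Capitals mark matches to the motifs searched, read on either strand, so that in Fstl3 the runs are reverse complements of the motifs.
Fstl3 (chr10:79777024-79777268, plus strand): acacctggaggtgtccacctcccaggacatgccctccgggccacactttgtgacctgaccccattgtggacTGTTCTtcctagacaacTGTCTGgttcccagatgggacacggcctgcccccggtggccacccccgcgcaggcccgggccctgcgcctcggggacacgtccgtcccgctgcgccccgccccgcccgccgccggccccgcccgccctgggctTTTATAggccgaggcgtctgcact
Tgfb2 (chr1:186705995-186706239, minus strand): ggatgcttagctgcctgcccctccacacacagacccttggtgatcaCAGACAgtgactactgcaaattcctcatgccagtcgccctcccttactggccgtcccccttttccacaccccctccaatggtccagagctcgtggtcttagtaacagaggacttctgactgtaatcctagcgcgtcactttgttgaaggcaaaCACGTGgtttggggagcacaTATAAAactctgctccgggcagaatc
Inhba (chr13:16011601-16011845, plus strand): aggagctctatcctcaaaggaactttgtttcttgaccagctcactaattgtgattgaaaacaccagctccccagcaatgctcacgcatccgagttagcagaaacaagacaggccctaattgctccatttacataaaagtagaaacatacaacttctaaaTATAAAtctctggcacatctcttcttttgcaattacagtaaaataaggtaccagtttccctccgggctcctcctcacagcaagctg
Acvr2a (chr2:48813859-48814103, plus strand): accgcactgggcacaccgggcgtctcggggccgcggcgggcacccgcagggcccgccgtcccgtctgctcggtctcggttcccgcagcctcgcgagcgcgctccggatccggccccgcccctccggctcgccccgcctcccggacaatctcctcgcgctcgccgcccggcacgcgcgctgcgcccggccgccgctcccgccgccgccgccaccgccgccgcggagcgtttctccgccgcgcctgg
Tgfb3, Tgfbr3 and Fst have no entry in the promoter table; the other 7 members had 9 such windows.

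The motifs were searched on both strands: the glucocorticoid receptor's half-site AGAACA, its palindrome (that half-site and its reverse complement, 3 bases apart) and a partial palindrome that ends after TGT. Also searched were the SMAD motifs GTCTAGAC, CAGACA and GTCTGTCT, the AP-1 motif TGACTCA, the E-box CACGTG and the TATA motif TATAAA. The half-site is part of both palindromes, and CAGACA can overlap GTCTGTCT by its reverse complement. No member window held the palindrome or its partial form, which occur in 0.00913% and 0.365% of the 32851 RefSeq promoter windows of this length, nor GTCTAGAC (0.167% of all), GTCTGTCT (1.5%) or TGACTCA (4.4%). Only Fstl3 held the half-site, on the minus strand, 179 to 174 bases before the start; 15.8% of all windows hold it. CAGACA stood in windows of Fstl3, Ltbp1, Tgfb2 and Tgfbr1 and in 16.8% of all windows. TATAAA stood in those of Fstl3, Inhba and Tgfb2, against 12.2% of all, and CACGTG in that of Tgfb2, against 5.85%. The Acvr2a window held none of these motifs and was 82.4% G and C, where the median window has 52.2%. A match is a run of letters and was not tested as a binding site.

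Among the ligands, Tgfb2 and Tgfb3 differed in direction. Tgfb2 (ENSMUSG00000039239) encodes the isoform that depends most on a co-receptor for binding. Vehicle libraries had 135 and 130 CPM of it, dexamethasone libraries 155 and 153. Both treated libraries lay above both controls by a narrow margin, and the libraries of a group differed by little. Its fitted log2 fold change was 0.22 (SE 0.114, 95% interval -0.09 to 0.52), and it did not pass (edgeR adjusted p 1.00, unadjusted p 0.121).

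Tgfb3 (ENSMUSG00000021253) encodes a further isoform of the same family. Its levels were 118 and 106 CPM after vehicle and 81.7 and 67.9 after dexamethasone, so that every treated library was below every control. On the log2 scale the fold change was -0.58 (SE 0.154, 95% interval -0.99 to -0.18), with an edgeR unadjusted p of 0.0152 and an adjusted p of 0.490. Within replicate number 1 the treated library had 0.690 of the vehicle level and within number 2 it had 0.642. In the annotation, 5149 bases of Tgfb3 are shared with Ttll5 on the opposite strand (5283 and 11922 counts after vehicle, 7136 and 27715 after dexamethasone). Whether the counting used strand is not given in the sources used here, and without strand reads from the shared stretch cannot be told apart.

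The ratio of 2 genes within one library needs no scaling between libraries. Vehicle libraries had 1.14 and 1.23 counts of Tgfb2 per count of Tgfb3, and dexamethasone libraries 1.89 and 2.26. That the groups part here follows from the levels, since Tgfb2 was higher and Tgfb3 lower in both treated libraries. Per kilobase of exon the ratio was 0.666 and 0.720 after vehicle and 1.11 and 1.32 after dexamethasone: on that scale Tgfb3 was the more abundant of the pair in both vehicle libraries and Tgfb2 in both dexamethasone libraries. Per kilobase of gene span Tgfb3 was the more abundant in all 4 libraries, at 5.31 and 4.74 CPM per kb against 1.62 and 1.57 after vehicle and at 3.66 and 3.04 against 1.86 and 1.84 after dexamethasone. This ratio and the others below were picked after the values were seen, and with 2 libraries against 2 an exact two-sided permutation test cannot give a p below 0.333, so they carry no test.

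The first family member, Tgfb1, was scarce. It had 7.56 and 11.6 CPM after vehicle and 4.57 and 5.74 after dexamethasone, with a log2 fold change of -0.90 (SE 0.293; edgeR unadjusted p 0.0316, adjusted p 0.714). Without vehicle replicate 2 its log2 fold change was -0.54. Per kilobase of exon Tgfb1 stood at 1.90 ± 0.573 CPM after vehicle, against 22.9 ± 0.555 for Tgfb2 and 33.1 ± 2.65 for Tgfb3 (SD, n = 2 each). The gap was smaller per kilobase of span, at 0.531 ± 0.160 for Tgfb1, 1.59 ± 0.0386 for Tgfb2 and 5.02 ± 0.401 for Tgfb3.

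Inhba (ENSMUSG00000041324) encodes the beta-A subunit, a pair of which forms activin A. It had 12.3 and 17.2 CPM after vehicle and 9.04 and 11.6 after dexamethasone, so that the lowest vehicle library was only just above the highest treated one. For counting error alone, the 95% Poisson intervals of these 2 libraries overlap. They were 10.7 to 14.0 CPM in vehicle replicate 1 and 10.9 to 12.3 in dexamethasone replicate 2. The log2 fold change of Inhba was -0.52 (SE 0.253, 95% interval -1.19 to 0.15; edgeR unadjusted p 0.101, adjusted p 1.00). It was -0.24 without vehicle replicate 2, and with library sizes alone as the scale the groups overlapped. In the annotation Inhba shares 11573 bases with B230303A05Rik and 6240 with Gm48444, both on the opposite strand. Neither is among the genes counted, and the reservation on strand is as for Tgfb3. The other subunits, Inhbb and Inha, had at most 3.98 and 4.43 CPM, and their libraries overlapped. Mstn, the myostatin gene, had 0 and 1 counts after vehicle and 4 and 1 after dexamethasone, too few to test. Its closest relative Gdf11 had 4.61 and 4.87 CPM after vehicle and 2.30 and 3.09 after dexamethasone, a log2 fold change of -0.81 (SE 0.267; edgeR unadjusted p 0.0333, adjusted p 0.730).

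Ltbp1 (ENSMUSG00000001870), whose product anchors latent TGF-beta in the matrix, was the most abundant member by CPM. It had 380 and 548 CPM after vehicle and 486 and 717 after dexamethasone. The groups overlapped, and the libraries numbered 2 were higher than those numbered 1 under both treatments. Within each number the treated library was the higher one, by 1.28 and 1.31 times. The log2 fold change of 0.37 (SE 0.283, 95% interval -0.37 to 1.12) did not pass (edgeR unadjusted p 0.249, adjusted p 1.00), and the estimate was 0.06 if dexamethasone replicate 2 was left out and 0.67 if vehicle replicate 2 was. Of the related genes, Ltbp2 had a log2 fold change of 0.38 (SE 0.234), Ltbp3 of -0.39 (SE 0.297) and Ltbp4 of -0.19 (SE 0.191), each with overlapping libraries; without vehicle replicate 2 these were 0.14, 0.01 and -0.06.

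Tgfbr3 (ENSMUSG00000029287) encodes betaglycan, a co-receptor that presents TGF-beta2 to the signalling receptors and also binds inhibin. Its counts were 193 and 658 after vehicle and 1278 and 4728 after dexamethasone, or 10.3 and 17.3 against 42.6 and 50.6 CPM. The lowest treated library was more than the highest control by a margin well beyond counting error, since the 95% Poisson interval of vehicle replicate 2 ended at 18.7 CPM and that of dexamethasone replicate 1 began at 40.3. The treated level was 4.12 times the vehicle level within number 1 and 2.92 times within number 2. The fitted difference was 3.35-fold, a log2 fold change of 1.74 (SE 0.294, 95% interval 0.97 to 2.52), and 106 of the 13285 tested genes had a higher one. Set against Tgfbr1 within each library, there were 0.0679 and 0.178 counts of Tgfbr3 per count of Tgfbr1 after vehicle and 0.244 and 0.516 after dexamethasone. In the annotation Tgfbr3 shares 3571, 2094 and 2167 bases with Gm43422, Gm43423 and Gm42900 on its own strand. None of these is among the genes counted, and reads from the shared stretches cannot be told apart even with strand.

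The difference in Tgfbr3 between the groups did not pass over all genes with edgeR's quasi-likelihood test (unadjusted p 0.00265, adjusted p 0.213). Among the alternatives with 2 libraries in each group, it passed with DESeq2's Wald test (adjusted p 1.38e-05) and edgeR's likelihood ratio test (6.20e-05). It also passed in edgeR's quasi-likelihood test with the replicate number as a block (adjusted p 0.000369), a fit with 1 residual degree of freedom. Without vehicle replicate 2 the log2 fold change of Tgfbr3 was 2.18. The adjusted p over all alternatives ran from 1.38e-05 to 0.461. Every alternative gave a log2 fold change between 1.43 and 2.18.

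**Figure D2:**
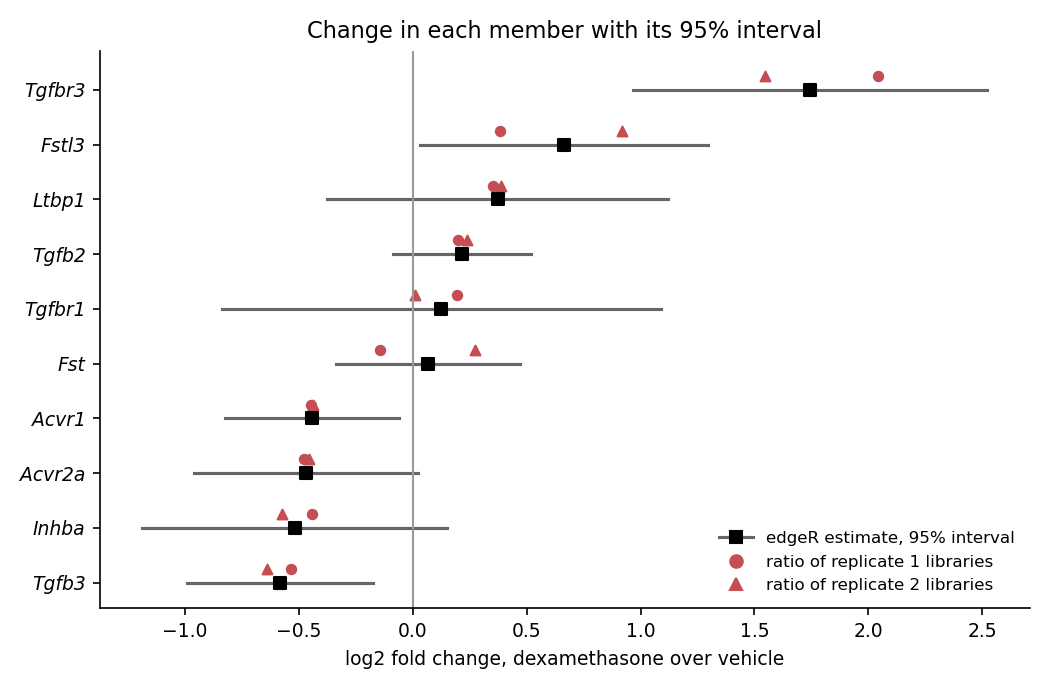
Log2 fold change of dexamethasone over vehicle for the 10 genes, with squares for the edgeR estimate, lines for its 95% interval, and circles and triangles for the ratio within replicate numbers 1 and 2. The interval lies above 0 for Tgfbr3 and Fstl3 and below 0 for Acvr1 and Tgfb3, before any adjustment for the number of genes tested.

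The 2 type I receptor genes differed in pattern. Acvr1 (ENSMUSG00000026836) encodes ALK2, which serves mainly bone morphogenetic proteins and can also be bound by activin A. It had 147 and 167 CPM after vehicle and 108 and 123 after dexamethasone, with no overlap. The ratio of treated to vehicle was nearly the same within both numbers, at 0.733 and 0.738. Its fitted log2 fold change was -0.44 (SE 0.145, 95% interval -0.83 to -0.06; edgeR unadjusted p 0.0317, adjusted p 0.714).

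Tgfbr1 (ENSMUSG00000007613) encodes ALK5, the main type I receptor of TGF-beta. It had 152 and 97.7 CPM after vehicle and 174 and 98.2 after dexamethasone. Both libraries numbered 1 were above both numbered 2, whatever the treatment, as were 11 of the 12 myotube markers; the part of the markers in this split was not tested. On the log2 scale the fold change was 0.12 (SE 0.364, 95% interval -0.84 to 1.09; edgeR unadjusted p 0.747, adjusted p 1.00). Its direction turned without vehicle replicate 2 (-0.16) and without dexamethasone replicate 1 (-0.34).

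Acvr2a (ENSMUSG00000052155) encodes a type II receptor used by activins, myostatin and some bone morphogenetic proteins. It had 295 and 237 CPM after vehicle and 212 and 172 after dexamethasone, with no overlap. Within the numbers the treated library had 0.718 and 0.729 of the vehicle level. The log2 fold change was -0.47 (SE 0.185, 95% interval -0.96 to 0.02; edgeR unadjusted p 0.0569, adjusted p 0.896), and it was -0.30 without vehicle replicate 1. The ratio of Acvr2a to Acvr1 overlapped between the groups: there were 2.01 and 1.42 counts of Acvr2a per count of Acvr1 after vehicle and 1.97 and 1.40 after dexamethasone. Acvr2a shares 446 bases with Orc4 on the opposite strand (3193 and 4401 counts after vehicle, 4949 and 11644 after dexamethasone), with the same reservation on strand as for Tgfb3.

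None of the other receptor genes of the list had an unadjusted p under 0.05. Acvr2b, the second activin type II receptor gene, had 15.7 and 29.4 CPM after vehicle and 10.7 and 21.2 after dexamethasone, overlapping between groups (log2 fold change -0.50, SE 0.460; 0.04 without vehicle replicate 2). Acvr1b, which encodes the activin type I receptor ALK4, had 28.2 and 32.9 against 26.5 and 36.1 CPM. Acvr1c stayed under 1 CPM in every library. Tgfbr2, the type II receptor gene of TGF-beta, was listed at 0 in every library, as were the 371 genes in a row, itself included, among which it lies on its strand of chromosome 9 in the order of the GENCODE M21 annotation. It is taken as not measured here, as are Smad3 and Smad6, which lie in the same stretch.

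Fst and Fstl3 encode secreted proteins that bind activins and myostatin and keep them from their receptors. Fst (ENSMUSG00000021765), the follistatin gene, had 77.3 and 68.4 CPM after vehicle and 69.9 and 82.6 after dexamethasone. The groups overlapped, and the ratio of treated to vehicle was 0.904 within number 1 and 1.21 within number 2. Its log2 fold change was 0.07 (SE 0.152, 95% interval -0.34 to 0.47; edgeR unadjusted p 0.678, adjusted p 1.00), with the sign turned without vehicle replicate 2 (-0.01) and without dexamethasone replicate 2 (-0.06).

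Fstl3 (ENSMUSG00000020325) was the member with the lowest CPM, with 84 and 152 counts after vehicle and 176 and 706 after dexamethasone. That is 4.50 and 4.0 CPM against 5.87 and 7.56, with no overlap. Its fitted log2 fold change was 0.66 (SE 0.239, 95% interval 0.03 to 1.30; edgeR unadjusted p 0.0427, adjusted p 0.800). Counting error is large here: the 95% Poisson interval of vehicle replicate 1 was 3.59 to 5.58 CPM and that of dexamethasone replicate 1 was 5.03 to 6.80, and these overlap. The neighbouring Prss57, on the opposite strand of Fstl3 over 1157 bases, had at most 5 counts in a library.

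Ratios of antagonist to activin subunit were compared within libraries as well. There were 0.367 and 0.233 counts of Fstl3 per count of Inhba after vehicle and 0.649 and 0.654 after dexamethasone. Fst gave 6.30 and 3.98 counts per count of Inhba after vehicle and 7.74 and 7.15 after dexamethasone. In both ratios the treated libraries lay above the controls. For Fstl3 to Inhba this follows from the levels, since Fstl3 was higher and Inhba lower in both treated libraries. The share of Fst against Fstl3 was lower after dexamethasone, at 11.9 and 10.9 counts of Fst per count of Fstl3, than after vehicle, at 17.2 and 17.1.

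**Figure D3:**
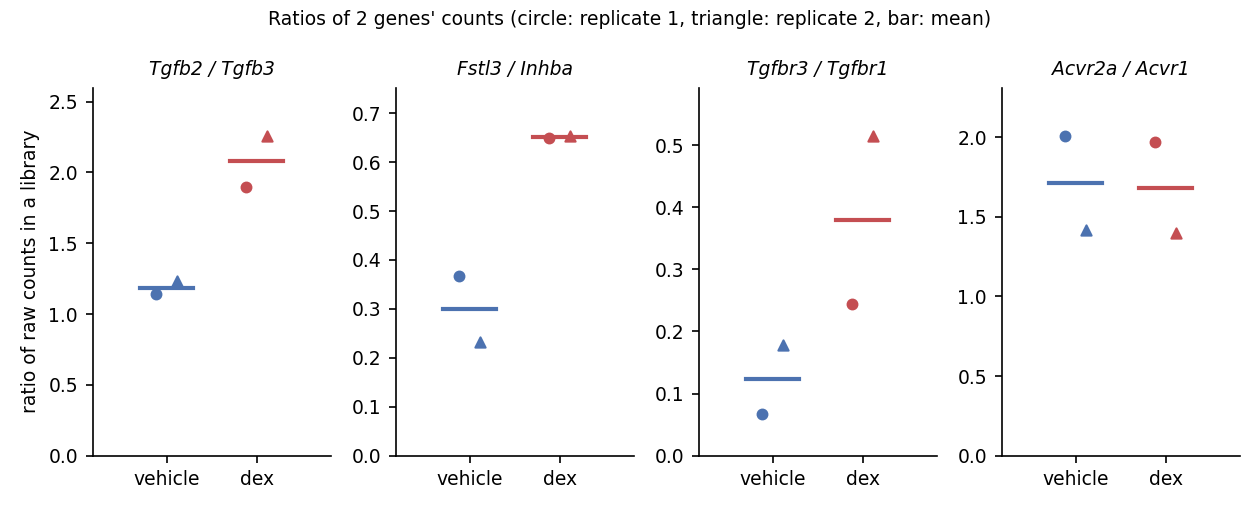
Ratios of raw counts of 2 genes within each library, with circles for replicate 1, triangles for replicate 2 and bars for group means, on linear axes that start at 0. The ratios of Tgfb2 to Tgfb3, Fstl3 to Inhba and Tgfbr3 to Tgfbr1 lie higher in both dexamethasone libraries, and that of Acvr2a to Acvr1 does not.

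Levels of different genes were compared per kilobase, since longer genes collect more reads. The order of the vehicle means per kilobase of exon was Acvr2a (46.8 ± 7.27 CPM per kb), Ltbp1 (43.4 ± 11.1), Tgfb3 (33.1 ± 2.65), Acvr1 (32.5 ± 2.98), Tgfb2 (22.9 ± 0.555), Tgfbr1 (19.1 ± 5.93), Fst (15.9 ± 1.38), Inhba (2.31 ± 0.545), Tgfbr3 (2.11 ± 0.755) and Fstl3 (1.74 ± 0.145) (SD, n = 2 each). The vehicle libraries of Acvr2a and Ltbp1 overlapped. So did those of Tgfb3 and Acvr1, Tgfb2 and Tgfbr1, Tgfbr1 and Fst, Inhba and Tgfbr3, and Tgfbr3 and Fstl3. The ranges of mean ± SD also met for Ltbp1 with Tgfb3 and with Acvr1, and for Inhba with Fstl3. By exon length the last 3 in this order lay well under the other 7. After dexamethasone Tgfbr3 stood, per kilobase of exon, at 7.12 ± 0.864 and was above Fstl3 (2.75 ± 0.488) and Inhba (1.61 ± 0.278).

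Whether introns were counted is not given in the sources used here, and on the scale of the whole gene span the order changed. There Fst was first at 10.9 ± 0.949 CPM per kb, with a span of 6.66 kb, and Tgfbr3 last at 0.0756 ± 0.0270. Tgfbr3 and Fstl3 swapped places with the scale, and Ltbp1, with a span of 387 kb, stood at 1.20 ± 0.307. The gap seen by exon was absent by span for Inhba (0.746 ± 0.176) and Fstl3 (0.794 ± 0.0660), which lay near Acvr1 (0.879 ± 0.0805). After dexamethasone Tgfbr3 was still last by span, at 0.255 ± 0.0309, below Fstl3 (1.25 ± 0.223) and Inhba (0.521 ± 0.0899). By exon Tgfbr3 was above both, and Fstl3 was above Inhba on either scale. Fst exceeded Fstl3 in every library on either scale.

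Libraries with different replicate numbers also differed, and the members did so to unequal degrees. For each gene the difference between numbers 1 and 2 was averaged over the groups, and the difference between treatments over the numbers. The treatment difference was the larger in 8 of the 10 members. It was the larger in 31.8% of 13275 tested genes with counts in every library, where the median size was 0.135 for treatment and 0.281 for the number on the log2 scale. As the members were chosen with earlier results of these data known, the count of 8 is only a description. The 2 exceptions were Tgfbr1, at 0.10 for treatment and 0.74 for the number, and Ltbp1, at 0.37 and -0.54. The gap was widest for Tgfbr3, at 1.79 for treatment and -0.50 for the number. For Acvr1 and Acvr2a the treatment differences were -0.44 and -0.47 and the number differences -0.19 and 0.31, of opposite sign. Signs were kept in all these means, so that opposite differences cancel. Fst was among the 8 at 0.06 for treatment and -0.03 for the number. Its number differences were 0.18 after vehicle and -0.24 after dexamethasone. Those of Fstl3 were 0.17 and -0.36, with a mean of -0.10.

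**Figure D4:**
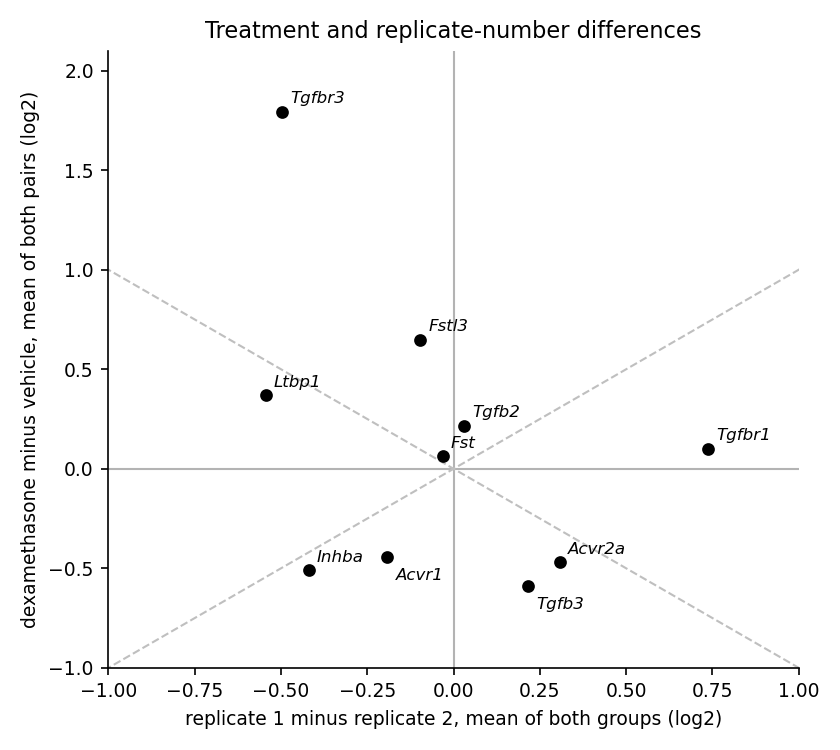
For each of the 10 genes, the log2 difference between dexamethasone and vehicle (vertical axis) against that between replicate numbers 1 and 2 (horizontal axis); along the dashed lines both have equal size. Tgfbr1 and Ltbp1 lie outside the upper and lower wedges, where the number difference exceeds the treatment difference.

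The wider pathway was described with 5 lists by role, which hold 97 genes of the table, the 10 members among them. Of these 97, 76 were tested and 0 passed an adjusted p of 0.05 in edgeR's quasi-likelihood test, while an unadjusted p under 0.05 went to 9 genes on the higher side and 8 on the lower side, beside 4.09% and 1.69% of all tested genes. DESeq2's Wald test and edgeR's likelihood ratio test each called 6 of them, beside 289 and 288 of all 13285, and limma-voom 0. Both treated libraries were above both controls in 14 and below them in 19, beside 15.0% and 12.9% of all tested genes. The median log2 fold change was -0.09, beside a median of -0.00159 over all tested genes. Of the 66 tested genes that are not members, 43 had a negative log2 fold change and 23 a positive one, beside 6684 and 6601 of all 13285.

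Of the 7 tested ligand genes, 4 had treated libraries entirely below the controls (Tgfb1, Tgfb3, Inhba and Gdf11) and 1 entirely above (Tgfb2), with a median log2 fold change of -0.52. All counts by list stand beside 15.0% of all tested genes above and 12.9% below. Of 11 tested receptor genes, 1 was above (Tgfbr3) and 3 below (Acvr1, Acvr2a and Bmpr2), with a median of -0.13. Of 20 tested inhibitors and latency genes, 2 were above and 4 below, in the same sense, with a median of -0.12. Fbn1, which encodes the fibrillin that carries latent complexes in the matrix, was the one non-member of that list with an unadjusted p under 0.05: it had 994 and 859 CPM after vehicle and 700 and 529 after dexamethasone (edgeR unadjusted p 0.0336, adjusted p 0.730). Bmpr2 and Fstl5 are named after their values were seen. The lowest log2 fold change of the inhibitor list, that of Fstl5, rests on 47 and 11 counts after vehicle and 4 and 22 after dexamethasone.

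Of 18 tested SMADs and regulators, 2 were above and 4 below (15.0% and 12.9% of all tested genes), with 0 at an unadjusted p under 0.05 and a median of -0.08. Smad7, the inhibitory SMAD gene that TGF-beta signalling itself switches on, had 19.1 and 38.5 CPM after vehicle and 8.54 and 18.2 after dexamethasone. Its lowest control was only just above its highest treated library. On the log2 scale the fold change was -1.10 (SE 0.508; edgeR unadjusted p 0.0872, adjusted p 1.00), and it was -0.50 without vehicle replicate 2 and -1.76 without dexamethasone replicate 2. Smad2 and Smad4, which transmit the signal, were at -0.09 (SE 0.113) and 0.11 (SE 0.126), respectively, by log2 fold change; that of Smad4 was 0.04 without dexamethasone replicate 1.

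The list of genes known to respond to TGF-beta split in both directions. Of 20 tested, 8 had treated libraries above the controls and 4 below (15.0% and 12.9% of all tested genes), with a median of 0.09. Many of these genes respond to other signals too. The highest were Postn, the periostin gene, at 11.0 and 10.6 CPM after vehicle and 117 and 63.8 after dexamethasone, and Ccn2, a connective tissue growth factor gene, at 3.27 and 6.32 against 35.1 and 42.1. Their log2 fold changes were 3.06 (SE 0.343) for Postn and 2.98 (SE 0.362) for Ccn2, with edgeR adjusted p of 0.123 and 0.126.

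Among the genes that passed with DESeq2's Wald test were Postn, Ccn2, Nox4 and Adam12, with adjusted p of 4.90e-16, 1.77e-13, 0.0105 and 0.0456, beside Tgfbr3. Over all alternatives the adjusted p ran up to 0.154 for Postn, 0.235 for Ccn2, 0.854 for Nox4 and 1.00 for Adam12. Adam12, Nox4, Lox and Itga5 had log2 fold changes of 0.79 (SE 0.179), 0.78 (SE 0.130), 0.63 (SE 0.159) and 0.60 (SE 0.117), each with every treated library above every control. On the lower side stood the collagen genes Col1a1 (-0.98, SE 0.356) and Col1a2 (-0.59, SE 0.146) and the repressor gene Snai2 (-0.62, SE 0.206). That of Col1a1 was -0.40 without vehicle replicate 2. Tagln and Acta2, on one strand of chromosomes 9 and 19, were listed at 0 in stretches of 164 and 146 genes at 0 and are likewise taken as not measured.

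**Figure D5:**
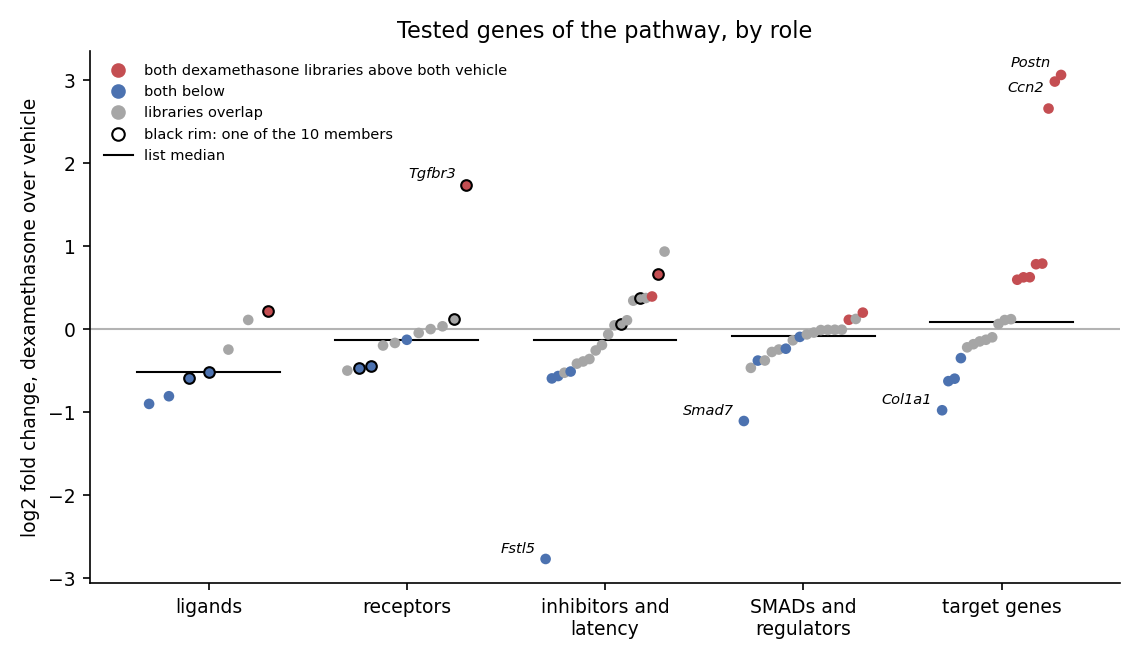
Log2 fold change of every tested gene of the 5 lists, by role, in red where both dexamethasone libraries were above both vehicle libraries, in blue where both were below and in grey where they overlapped; black rims mark the 10 members and lines the list medians. The ligand list has its median at -0.52, and the highest points are Postn and Ccn2 among the target genes.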

How the data were processed

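Chromatin-bound RNA of 4 libraries of C2C12 myotubes was sequenced, and the labels' protocols name both a stranded total RNA kit and a stranded mRNA kit. The authors deposited 1 table of raw read counts per gene. Per the submitters' processing notes, TopHat2 2.0.13, SAMtools 1.1, HTSeq 0.6.1, DESeq2 1.18.1 and build mm9 were used; the strand setting, the annotation and whether introns were counted are not given in the sources used here. Of 23333 rows, 51 repeats were dropped, leaving 23282 genes, 5402 of them at 0 in every library. Members were matched by symbol.

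Genes passing edgeR's filterByExpr (minimum count 10, minimum total 15) numbered 13285. They were scaled by TMM and tested with edgeR 4.0.16 (R 4.3.3), quasi-likelihood, two-sided, without a replicate block, with Benjamini-Hochberg adjustment over all of them and a threshold of 0.05. The intervals of log2 fold changes are 95% intervals on 4.56 degrees of freedom (2 residual and 2.56 prior). Poisson intervals cover counting error only. Alternatives were limma-voom (limma 3.58.1), DESeq2 1.42.0, the likelihood ratio test, other scalings and filters, thinning to 19631435 counts, a replicate block and leaving out each library; the scripts were tested on simulated data. Gene lengths came from GENCODE M21 on GRCm38, and promoters from RefSeq on GRCm38.p6. The members and lists were chosen with earlier results of these data known. Genes named are the members, their close family, pathway-list genes with an unadjusted p under 0.05 and 4 glucocorticoid-response genes. One gene of the target list that the rule would name is counted in the list but not reported here by itself.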

Additional observations from a re-analysis of the deposited data

How the results depend on the processing

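The count of tested genes called was 5 with edgeR's quasi-likelihood test, 23 without the filter, 289 with DESeq2's Wald test, 288 with the likelihood ratio test, 0 with limma-voom, 0 after thinning and 4 to 193 when 1 library was left out, the most without vehicle replicate 2. The members called were 1 with DESeq2, 1 with the likelihood ratio test and 0 to 1 with a library left out, and the pathway-list genes called were 6, 6 and 0 to 5. With 1 library left out, 8 to 9 members did not overlap, as fewer libraries overlap less often by construction. The share of all tested genes that did so with 1 library left out is not given here. That count is therefore not comparable with the 27.9% of all tested genes over 4 libraries. The lone library of a group was then assumed to vary like the others.

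Libraries with the same replicate number resembled each other (r of log2 CPM across genes 0.981 and 0.989) more than libraries of a group (0.973 and 0.980), and the differences between numbers correlated at 0.734 between the groups (a correlation over genes, not samples). The labels do not say that a number marks a shared culture, so pairing is only a hint from the data. With the replicate block, which leaves 1 residual degree of freedom, 1681 genes (913 higher, 768 lower), 34 pathway-list genes and 7 members were called: Tgfbr3 (adjusted p 0.000369), Tgfb3 (0.00178), Acvr2a (0.00256), Acvr1 (0.00358), Ltbp1 (0.00566), Inhba (0.0125) and Fstl3 (0.0353).

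Over 39 named genes, 470 log2 fold changes under an alternative kept their direction and side of the threshold, 58 passed only under the alternative, 2 no longer passed and 16 turned. With 1 library left out, the estimates that turned ran from -0.34 (without dexamethasone replicate 1) to 0.48 for Tgfbr1, -0.0590 (without dexamethasone replicate 2) to 0.19 for Fst, -0.24 to 0.64 for Inha, -0.89 to 0.34 for Inhbb, -0.21 to 0.25 for Acvr1b, -0.68 to 0.21 for Acvr1c, -1.08 to 0.0422 (without vehicle replicate 2) for Acvr2b and -0.69 to 0.0108 (without vehicle replicate 2) for Ltbp3. After thinning, Inhbb was at 0.0149 and Acvr1b at -0.0138. The median over the members was 0.10, and -0.0837 to 0.15 with 1 library left out. That over all tested genes was 0.0124 without the filter and -0.0117 to 0.0171 with 1 library left out. The cause of these differences was not tested.

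At a smallest library of 19631435 counts, Fstl3 had 84 counts, the fewest of any member and library, so its counting error is the largest.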
